A study of Mus musculus with 8 samples.

Results

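Mitosis and the G2/M transition that leads into it are run by a set of genes whose transcripts build up late in the cell cycle, and 52 of them were followed here across neural stem cell libraries of the mouse. The members are a list of gene symbols drawn up with earlier results of these data known, and all 52 were found among the 45777 genes of the expression table. They fall into 8 roles: 11 entry kinases, cyclins and their regulators, 8 genes of chromosome structure, 8 of the spindle checkpoint and the anaphase-promoting complex, 4 of the chromosomal passenger complex, 6 of the centromere and kinetochore, 7 kinesins, 5 spindle-associated proteins and 3 genes of cytokinesis.

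As background, cells enter mitosis when cyclin B binds and activates the kinase Cdk1, helped by the Cdc25 phosphatases and by the kinases Plk1 and Aurora A. Condensin packs the chromosomes, kinetochores attach them to the spindle, and the checkpoint holds back the anaphase-promoting complex until every chromosome is attached. Many of these genes are transcribed together in G2, when B-Myb, Foxm1 and the MuvB complex act through promoter elements called CHR (cell cycle genes homology region) and the CCAAT box. In the subventricular zone, a germinal niche that lines the lateral ventricles of the brain, their RNA marks the stem and progenitor cells that are dividing.

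The series profiled RNA of neural stem cells from this zone by sequencing of ribosomal RNA-depleted libraries. Its 8 samples are 4 of S1PR1-deficient cells, whose genotype is given as S1pr1 deletion, and 4 of control cells, given as wild type. S1PR1 is a cell-surface receptor that senses the lipid sphingosine-1-phosphate. Within each genotype, 2 samples had received high-density lipoprotein labelled ApoM-HDL and 2 ApoM+HDL, where ApoM is the apolipoprotein that binds this lipid. No sample went without lipoprotein. Strain, age, the way the gene was deleted and the number of cultures or animals are not given in the sources consulted.

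The table names its 8 libraries GH1, GH2, GV1, GV2, CH1, CH2, CV1 and CV2. The letter C was read as control because it is the first letter of those titles alone, and G as S1PR1-deficient by elimination. The sources do not tell what H and V stand for, so the lipoprotein preparations are not assigned to them, and H and V are used only as the letters of the columns. The replicate numbers are not said to mark separate cultures or animals, so p-values measure only the spread between these samples, which may be technical.

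The targeted gene did not separate the libraries by the letters read as genotype. S1pr1 had 23.2 and 21.2 CPM in the GH libraries, 22.2 and 22.4 in GV, 25.4 and 23.2 in CH, and 20.8 and 16.0 in CV, where CPM is the normalised read count, a count relative to the total of its library after scaling by the trimmed mean of M-values (TMM). The G libraries lay inside the range of the C libraries, and the log2 difference of G minus C was 0.077 (SE 0.081, edgeR adjusted p = 0.569). The CV libraries were lowest: CH minus CV was 0.40 (SE 0.115, edgeR adjusted p = 0.0433) and GV minus CV 0.28 (SE 0.115, edgeR adjusted p = 0.0948). Counts per gene cannot show which part of a transcript was deleted, and every direction below is therefore one between libraries labelled G and libraries labelled C. The libraries held between 39619305 and 45698186 counts each, and 17644 genes passed a filter on low counts. Of 12 markers of neural stem and progenitor cells, 11 averaged over 1 CPM; the sum of the list was 5520 to 5930 CPM in the G libraries and 6280 to 6350 CPM in the C libraries, which do not overlap, and Gfap, the astrocyte filament gene, was under 1 CPM in every library. In that sum Vim, Fabp7, Slc1a3 and Nes weigh most; 2 of the 12 markers were called lower in G over both letters and 0 higher by edgeR, 7 were negative and 5 positive, and their median log2 difference was -0.065. Nes, the nestin filament gene, had 683, 668, 708 and 631 CPM in G and 833, 807, 828 and 802 CPM in C. Fabp7 had 1710, 1590, 1250 and 1510 CPM in G and 1890, 2020, 1790 and 1800 CPM in C. Neither overlapped between G and C, while Vim, Sox2, Slc1a3 and Pax6 did. Markers of microglia, 5 of 8 of which had no count in any library, summed to 2.29 to 2.99 CPM in G and 2.24 to 3.08 CPM in C. Sums for neuroblasts and neurons were 80.5 to 95.7 CPM in G and 59.8 to 89 CPM in C, and for the oligodendrocyte lineage 1650 to 1700 CPM in G and 1430 to 1960 CPM in C, with Olig1 and Olig2 high and Sox10 and Mog at or near 0. Ependymal markers summed to 17 to 19.8 CPM in G and 14.2 to 20 CPM in C, endothelial and mural markers to 3.03 to 3.93 CPM in G and 3.5 to 11 CPM in C, and fibroblast and meningeal markers to 0.958 to 1.98 CPM in G and 1.18 to 2.76 CPM in C. Gad1 weighed most in the neuroblast and neuron sum, and Acta2 in the endothelial and mural sums of the CH libraries. The part of these cell types in the results below was not tested.

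Many promoters of the members hold the elements named above, and those of the 5 members with the smallest p for G minus C among members whose promoter holds a CHR are printed to show them. Each line gives 300 bases, from 250 before to 50 after the first listed transcription start, 5′ to 3′ on the gene's strand, from RefSeq on GRCm38.p6. Capitals mark the CHR (searched as TTTGAA or TTTAAA, on both strands, so that it can read TTCAAA) and the CCAAT box (CCAAT on both strands, so that it can read ATTGG). Plk1 lies at chr7:122159185-122159484 on the forward strand, Ncapd2 at chr6:125191537-125191836 on the reverse strand, Ube2c at chr2:164769679-164769978 on the forward strand, Cdca8 at chr4:124936868-124937167 on the reverse strand, and Cdc20 at chr4:118437294-118437593 on the reverse strand.
Plk1: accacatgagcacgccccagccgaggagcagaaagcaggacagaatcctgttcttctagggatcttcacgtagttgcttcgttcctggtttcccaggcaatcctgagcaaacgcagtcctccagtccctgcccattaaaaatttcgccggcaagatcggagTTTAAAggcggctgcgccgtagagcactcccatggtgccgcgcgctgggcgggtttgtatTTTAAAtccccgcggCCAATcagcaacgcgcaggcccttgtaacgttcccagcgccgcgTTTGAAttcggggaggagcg
Ncapd2: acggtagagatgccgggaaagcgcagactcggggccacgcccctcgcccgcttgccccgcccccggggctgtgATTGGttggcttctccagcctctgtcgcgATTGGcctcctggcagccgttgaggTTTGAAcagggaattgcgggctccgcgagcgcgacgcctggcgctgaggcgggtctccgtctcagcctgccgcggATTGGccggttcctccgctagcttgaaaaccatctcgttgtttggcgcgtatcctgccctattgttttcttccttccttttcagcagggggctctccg
Ube2c: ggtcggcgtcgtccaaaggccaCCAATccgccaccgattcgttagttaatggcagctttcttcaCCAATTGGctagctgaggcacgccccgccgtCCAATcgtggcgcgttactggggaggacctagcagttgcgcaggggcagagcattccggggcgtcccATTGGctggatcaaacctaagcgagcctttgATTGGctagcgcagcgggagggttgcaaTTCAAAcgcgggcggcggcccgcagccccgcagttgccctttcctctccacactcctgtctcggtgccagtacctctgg
Cdca8: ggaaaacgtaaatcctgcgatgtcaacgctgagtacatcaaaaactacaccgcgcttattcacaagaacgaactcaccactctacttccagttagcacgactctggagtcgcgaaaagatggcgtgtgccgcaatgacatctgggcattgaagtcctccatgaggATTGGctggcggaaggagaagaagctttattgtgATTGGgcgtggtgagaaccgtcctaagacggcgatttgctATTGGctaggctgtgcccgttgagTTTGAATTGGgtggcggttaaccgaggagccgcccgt
Cdc20: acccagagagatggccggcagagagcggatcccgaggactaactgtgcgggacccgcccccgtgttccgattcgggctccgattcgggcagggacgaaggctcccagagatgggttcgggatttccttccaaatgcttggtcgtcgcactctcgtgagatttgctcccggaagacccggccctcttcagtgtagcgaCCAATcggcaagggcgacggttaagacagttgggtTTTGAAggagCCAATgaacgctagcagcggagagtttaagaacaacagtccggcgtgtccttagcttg
In Ube2c a CCAAT box and one on the other strand overlap, and in Cdca8 a CHR runs into a CCAAT box read on the other strand. Of the 43 members with an entry in the promoter table, 34 (79.1%) held a CHR in this window, against 27.8% of all 27025 promoters of the same length. A CCAAT box stood in 32 members (74.4%), against 37.9% of all promoters, and both stood in 29 members (67.4%), against 10.9% of all promoters. These matches are a description of the letters, not of binding.

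All 52 genes were well covered. The lowest count of any member in any library was 1059 and the highest 36677, and all 52 passed the filter on low counts. Per kilobase of the longest protein-coding transcript, the median member stood at 30.8 CPM per kb, at percentile 84.8 of all tested genes. Top2a, the topoisomerase that untangles sister chromatids, was highest at 129.3 CPM per kb, followed by Cdc20, the activator of the anaphase-promoting complex, at 118 CPM per kb and Ccna2, cyclin A, at 105 CPM per kb. Espl1, the separase that cuts cohesin at anaphase, was lowest at 9.89 CPM per kb. The genes varied little between libraries: the ratio of a member's highest to its lowest CPM over the 8 libraries was 1.06 to 1.68, with a median of 1.24. Prc1, which bundles microtubules at the spindle midzone, had the smallest ratio, with 206 and 202 CPM in the GH libraries, 207 and 202 in GV, 213 and 214 in CH, and 206 and 208 in CV. Ube2c, the ubiquitin-conjugating enzyme of the anaphase-promoting complex, had the largest ratio, with 86.3 and 84.7 CPM in the GH libraries, 68.8 and 79.5 in GV, 97.0 and 92.1 in CH, and 102 and 115 in CV. Together the members took 0.714% to 0.754% of all counts of a library, a narrow range.

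Set against libraries labelled C, libraries labelled G held less RNA of 6 of the 11 genes of mitotic entry, of all 4 genes of the chromosomal passenger complex and of Cdc20 and Ube2c, which work with the anaphase-promoting complex, over both letters together. Of the 52 members, 18 were lower in G and 1 was higher at an adjusted p under 0.05 (edgeR's quasi-likelihood test, Benjamini-Hochberg adjustment over all genes), and the differences were small, at most 24% below the C libraries. In the same test 19.2% of all genes were called, 9.03% higher and 10.2% lower. The median log2 difference of the members was -0.063, beside -0.0077 for all genes tested, and 34 of 52 were negative, against 26 of 52 under scaling by library totals. In bulk RNA, fewer dividing cells and less RNA per cell cannot be told apart. The summed markers of neural stem and progenitor cells given above were also lower in G, without overlap, with 2 of 12 called, and their part in the result was not tested. Library totals gave 4 higher and 16 lower members, where 14.4% of all genes were higher and 5.92% lower. The calls moved with the GC share of the transcripts: 14 of the 17 members richest in GC were lower, against 0 of the 18 poorest. Of all genes in the same GC ranges, 14.4% were lower at the GC-rich end and 1.57% at the GC-poor end. The 0 of 18 is thus near the share of all genes. The libraries differed in GC dependence over all genes, as described below. With a correction for GC share, an offset chosen after seeing the data, 27 members were lower and 0 higher, where 12.2% of genes were called (6.52% lower). Of the 18 lower members, 17 stayed lower, and Espl1 was lost.

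**Figure D1:**
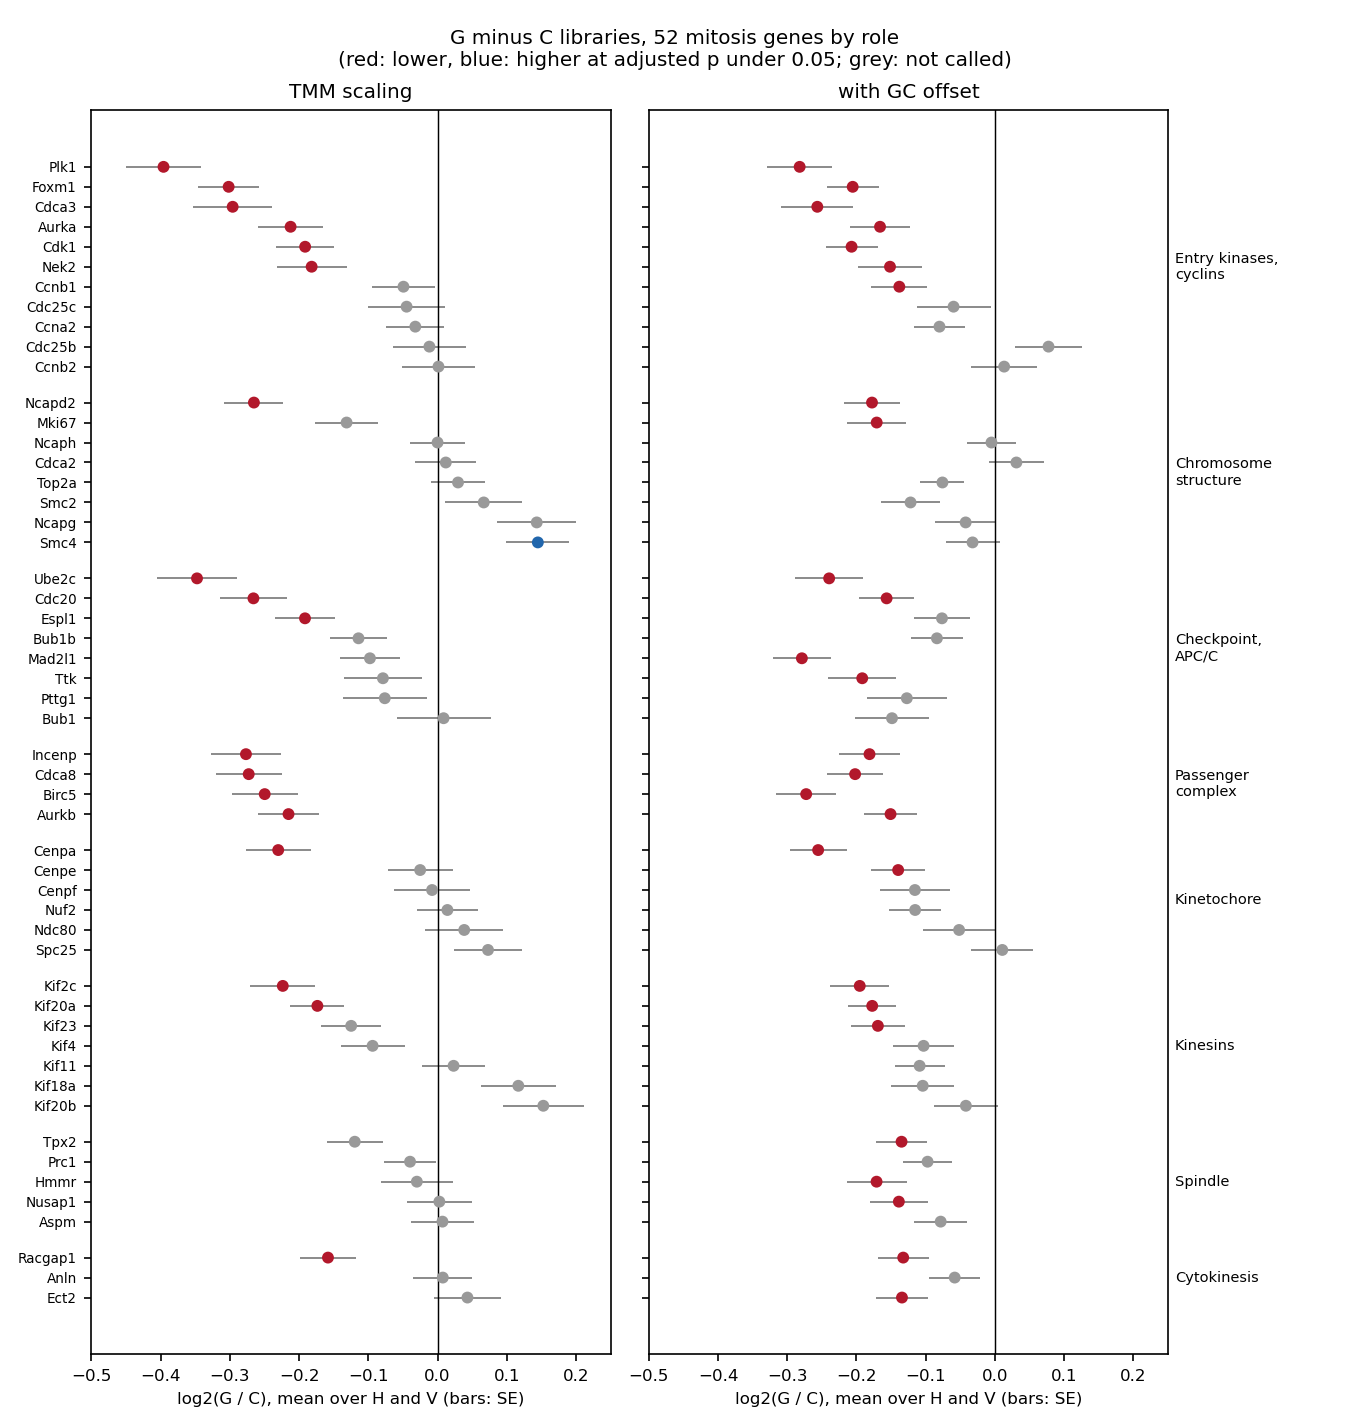
Log2 difference of G minus C, as the mean over the letters H and V, for each of the 52 members grouped by role, with TMM scaling on the left and with a GC offset on the right. Points are fitted differences, bars their SE over 8 libraries, red marks members lower and blue members higher at an adjusted p under 0.05, and grey the rest. All 4 genes of the passenger complex are red in both panels, and Smc4 is blue on the left alone.

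Among the entry kinases, cyclins and their regulators, 6 of 11 were lower in G and none was higher. Plk1, the Polo-like kinase of mitotic entry and spindle assembly (chr7:122159435-122169884, GRCm38), had 59.7 and 62.2 CPM in the GH libraries, 51.9 and 59.9 in GV, 73.8 and 68.8 in CH, and 84.3 and 81.3 in CV. All 4 G libraries lay below all 4 C libraries, with 58.5 ± 4.48 CPM in the G libraries and 77.1 ± 7.06 CPM in the C libraries (SD, n = 4 each). The log2 difference of G minus C was -0.40 (SE 0.055, edgeR adjusted p = 0.000773), the largest decrease among the members, and it was -0.28 with the GC offset (edgeR adjusted p = 0.00214).

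Foxm1, the transcription factor that drives many of the other genes, had 65.4 and 64.6 CPM in the GH libraries, 66.1 and 66.9 in GV, 73.0 and 70.1 in CH, and 89.8 and 93.8 in CV. Its G libraries were alike and below every C library, CV being highest, and the log2 difference was -0.30 (SE 0.044, edgeR adjusted p = 0.000973). Cdca3, which takes part in the turnover of the Cdk1 inhibitor Wee1, had 86.5 and 93.5 CPM in the GH libraries, 76.9 and 83.1 in GV, 104 and 97.9 in CH, and 99.2 and 116 in CV. Here too the groups did not overlap, and the difference was -0.30 (SE 0.057, edgeR adjusted p = 0.00425).

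Cdk1 itself, the kinase of mitotic entry, had 295 and 293 CPM in the GH libraries, 242 and 266 in GV, 314 and 324 in CH, and 306 and 303 in CV. Its GV libraries were lowest, the groups did not overlap, and the difference was -0.19 (SE 0.042, edgeR adjusted p = 0.0082). Aurka, the Aurora kinase of the centrosome, had 72.8 and 77.1 CPM in the GH libraries, 69.5 and 66.4 in GV, 85.6 and 87.0 in CH, and 76.1 and 82.3 in CV. The GH2 library lay above CV1, so the groups overlapped, and the difference was -0.21 (SE 0.047, edgeR adjusted p = 0.00849). Nek2, a kinase of centrosome separation, was also lower, at -0.18 (SE 0.051, edgeR adjusted p = 0.0252).

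The partners of Cdk1 did not pass the test. Ccnb1, cyclin B1, had 228 and 231 CPM in the GH libraries, 207 and 232 in GV, 239 and 244 in CH, and 229 and 220 in CV, with overlapping groups and a difference of -0.049 (SE 0.045, edgeR adjusted p = 0.501). Its difference with the GC offset was -0.14 (edgeR adjusted p = 0.0422). Ccnb2, cyclin B2, differed by 0.0013 (SE 0.053, edgeR adjusted p = 0.99). Cdc25b, a phosphatase that activates Cdk1, had 36.5 and 36.0 CPM in the GH libraries, 32.6 and 35.7 in GV, 31.5 and 31.2 in CH, and 39.6 and 40.8 in CV, and its difference over both letters was -0.012 (SE 0.053, edgeR adjusted p = 0.907). The remaining entry genes, Ccna2 and the phosphatase Cdc25c, differed by -0.032 and -0.045, with edgeR adjusted p of 0.652 and 0.638.

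All 4 members of the chromosomal passenger complex, which corrects wrong attachments of chromosomes to the spindle, were lower in G. Cdca8, also called borealin, had 70.5 and 69.4 CPM in the GH libraries, 60.1 and 61.8 in GV, 79.4 and 72.5 in CH, and 79.5 and 84.2 in CV, and its groups did not overlap. Birc5, survivin, had 76.1 and 73.1 CPM in the GH libraries, 65.6 and 64.6 in GV, 77.3 and 83.3 in CH, and 82.1 and 88.9 in CV, and every G library lay below every C library. Incenp, the scaffold of the complex, had 65.5 and 68.7 CPM in the GH libraries, 67.4 and 61.6 in GV, 74.2 and 68.2 in CH, and 87.7 and 90.7 in CV, with CV standing above the other libraries and GH2 just above CH2. Aurkb, its kinase, had 69.1 and 72.4 CPM in the GH libraries, 64.1 and 65.0 in GV, 74.7 and 71.1 in CH, and 83.3 and 85.5 in CV, with GH2 above CH2. The log2 differences ran from -0.28 for Incenp (SE 0.050) to -0.22 for Aurkb (SE 0.044), with edgeR adjusted p of 0.00305 and 0.00604, and all 4 were also lower with the GC offset, at -0.27 for Birc5 to -0.15 for Aurkb.

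Of the 8 genes of the spindle checkpoint and the anaphase-promoting complex, 3 were lower in G and none higher. Ube2c, whose values by library are given above, averaged 79.8 ± 7.94 CPM in the G libraries and 102 ± 9.93 CPM in the C libraries (SD, n = 4 each) without overlap, a log2 difference of -0.35 (SE 0.057, edgeR adjusted p = 0.00189). Cdc20 had 209.7 and 208 CPM in the GH libraries, 165 and 186 in GV, 231 and 212 in CH, and 236 and 243 in CV. The lowest C library stood just above the highest G library, and the difference was -0.27 (SE 0.048, edgeR adjusted p = 0.00307). Espl1 had 62.4 and 63.3 CPM in the GH libraries, 59.3 and 60.4 in GV, 63.4 and 63.1 in CH, and 77.9 and 77.3 in CV. Its GH and CH libraries lay together and CV stood above them, the difference was -0.19 (SE 0.043, edgeR adjusted p = 0.00945), and with the GC offset it was -0.077 (edgeR adjusted p = 0.25).

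The checkpoint genes proper did not pass. Bub1b, a checkpoint kinase relative that holds back Cdc20, differed by -0.11 (SE 0.042, edgeR adjusted p = 0.0763). Mad2l1, which binds Cdc20 while chromosomes are unattached, differed by -0.098 (SE 0.043, edgeR adjusted p = 0.14), and Ttk, the kinase that starts the checkpoint signal, by -0.079 (SE 0.057, edgeR adjusted p = 0.377). Both were lower once GC share was corrected for, at -0.28 and -0.19 (edgeR adjusted p = 0.00112 and 0.0235). Bub1, a checkpoint kinase at the kinetochore, and Pttg1 differed by 0.0087 and -0.076 (edgeR adjusted p = 0.946 and 0.428).

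Of the 8 genes of chromosome structure, 1 was higher in G and 1 lower, where 9.03% of all genes were higher and 10.2% lower. Each is near the share of all genes. Ncapd2, a regulatory subunit of condensin, had 200.4 and 208 CPM in the GH libraries, 201 and 183 in GV, 224 and 222 in CH, and 254 and 255 in CV, with no overlap, and its difference was -0.27 (SE 0.043, edgeR adjusted p = 0.00166). Smc4, an ATPase of the same complex (chr3:69004738-69034623), had 182 and 192 CPM in the GH libraries, 210 and 201 in GV, 177 and 197 in CH, and 168 and 168 in CV. The CH2 library lay among the G libraries, and the difference was 0.14 (SE 0.046, edgeR adjusted p = 0.0432). The difference turned to -0.032 with the GC offset (edgeR adjusted p = 0.661), and the call was lost in 14 of 20 other settings.

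The other subunits of condensin gave no call. Ncapg, another regulatory subunit, had 108 and 95.8 CPM in the GH libraries, 107 and 113 in GV, 96.9 and 114 in CH, and 87.5 and 86.6 in CV. Its CV libraries were lowest and CH2 highest, and the difference was 0.14 (SE 0.057, edgeR adjusted p = 0.102). Mki67, whose protein Ki-67 coats mitotic chromosomes and is the common marker of dividing cells, had 681 and 671 CPM in the GH libraries, 809 and 699.7 in GV, 750.2 and 760.3 in CH, and 824 and 797 in CV. The GV1 library lay among the C libraries while the other G libraries lay below them, and the difference was -0.13 (SE 0.046, edgeR adjusted p = 0.065). Correction for GC share put Mki67 among the lower members, at -0.17 (edgeR adjusted p = 0.0202). Top2a had 671 and 661 CPM in the GH libraries, 707 and 687 in GV, 678 and 730.1 in CH, and 643 and 622 in CV, with overlapping groups and a difference of 0.030 (SE 0.039, edgeR adjusted p = 0.656). The condensin genes Smc2 and Ncaph and the phosphatase-binding Cdca2 differed by 0.067, 5.3e-06 and 0.012, with edgeR adjusted p of 0.457, 1 and 0.887.

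At the centromere and kinetochore, 1 of 6 genes was lower in G. Cenpa, the histone variant that marks the centromere, had 97.0 and 93.7 CPM in the GH libraries, 77.5 and 84.5 in GV, 94.1 and 102 in CH, and 109 and 108 in CV. The GV libraries stood below the rest while GH and CH overlapped, and the difference was -0.23 (SE 0.047, edgeR adjusted p = 0.006). Spc25, a subunit of the Ndc80 complex that holds microtubules, had 83.1 and 81.8 CPM in the GH libraries, 81.3 and 91.7 in GV, 86.5 and 89.1 in CH, and 71.5 and 75.3 in CV. Its CV libraries were lowest and GV2 highest, and its difference was 0.073 (SE 0.049, edgeR adjusted p = 0.342). Its partners Ndc80 and Nuf2 differed by 0.039 and 0.014, and the kinetochore motor Cenpe and its binding partner Cenpf by -0.025 and -0.0079, none of them called. Cenpe was lower under the GC offset, at -0.14 (edgeR adjusted p = 0.0339).

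Among the kinesins, the motors of the spindle, 2 of 7 were lower in G. Kif2c, which takes microtubule ends apart at the centromere, had 64.5 and 68.4 CPM in the GH libraries, 63.2 and 62.2 in GV, 74.5 and 73.0 in CH, and 80.2 and 74.0 in CV, and its groups did not overlap. Kif20a, a motor of the central spindle and cytokinesis, had 119.8 and 118 CPM in the GH libraries, 111 and 111 in GV, 132 and 136 in CH, and 126 and 124 in CV, also without overlap. Their differences were -0.22 (SE 0.047, edgeR adjusted p = 0.00683) and -0.17 (SE 0.039, edgeR adjusted p = 0.00948). Kif18a and Kif20b, motors of chromosome alignment and of late cytokinesis, differed by 0.12 and 0.15 (edgeR adjusted p = 0.157 and 0.0869). Kif11, which pushes the spindle poles apart, Kif4, a chromosome-arm motor, and Kif23 differed by 0.023, -0.094 and -0.12 (edgeR adjusted p = 0.78, 0.183 and 0.065), and Kif23 was lower under the GC offset, at -0.17 (edgeR adjusted p = 0.0134).

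None of the 5 spindle-associated proteins was called, and 1 of 3 genes of cytokinesis was. Tpx2, which activates Aurora A on the spindle, had 169 and 173 CPM in the GH libraries, 184 and 179 in GV, 189 and 188 in CH, and 201 and 188 in CV. Its G libraries all lay below its C libraries by a small margin, and the difference was -0.12 (SE 0.041, edgeR adjusted p = 0.0581). Correction for GC share gave -0.13 (edgeR adjusted p = 0.0313). Prc1, given above, differed by -0.040 (SE 0.038, edgeR adjusted p = 0.521). Hmmr, Nusap1 and Aspm, which act on spindle microtubules and poles, differed by -0.030, 0.0026 and 0.0071. None of these passed, while Hmmr and Nusap1 were lower under the GC offset, at -0.17 and -0.14 (edgeR adjusted p = 0.0217 and 0.0457). Racgap1, which with the kinesin Kif23 forms the centralspindlin complex that places the cleavage furrow, had 191 and 184 CPM in the GH libraries, 172 and 182 in GV, 195 and 190 in CH, and 212 and 218 in CV. Its GH1 library lay just above CH2, and the difference was -0.16 (SE 0.041, edgeR adjusted p = 0.0177). Anln, which scaffolds the contractile ring, differed by 0.0076. Ect2, the exchange factor that activates RhoA at the furrow, differed by 0.043, and by -0.13 under the GC offset (edgeR adjusted p = 0.0359).

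**Figure D2:**
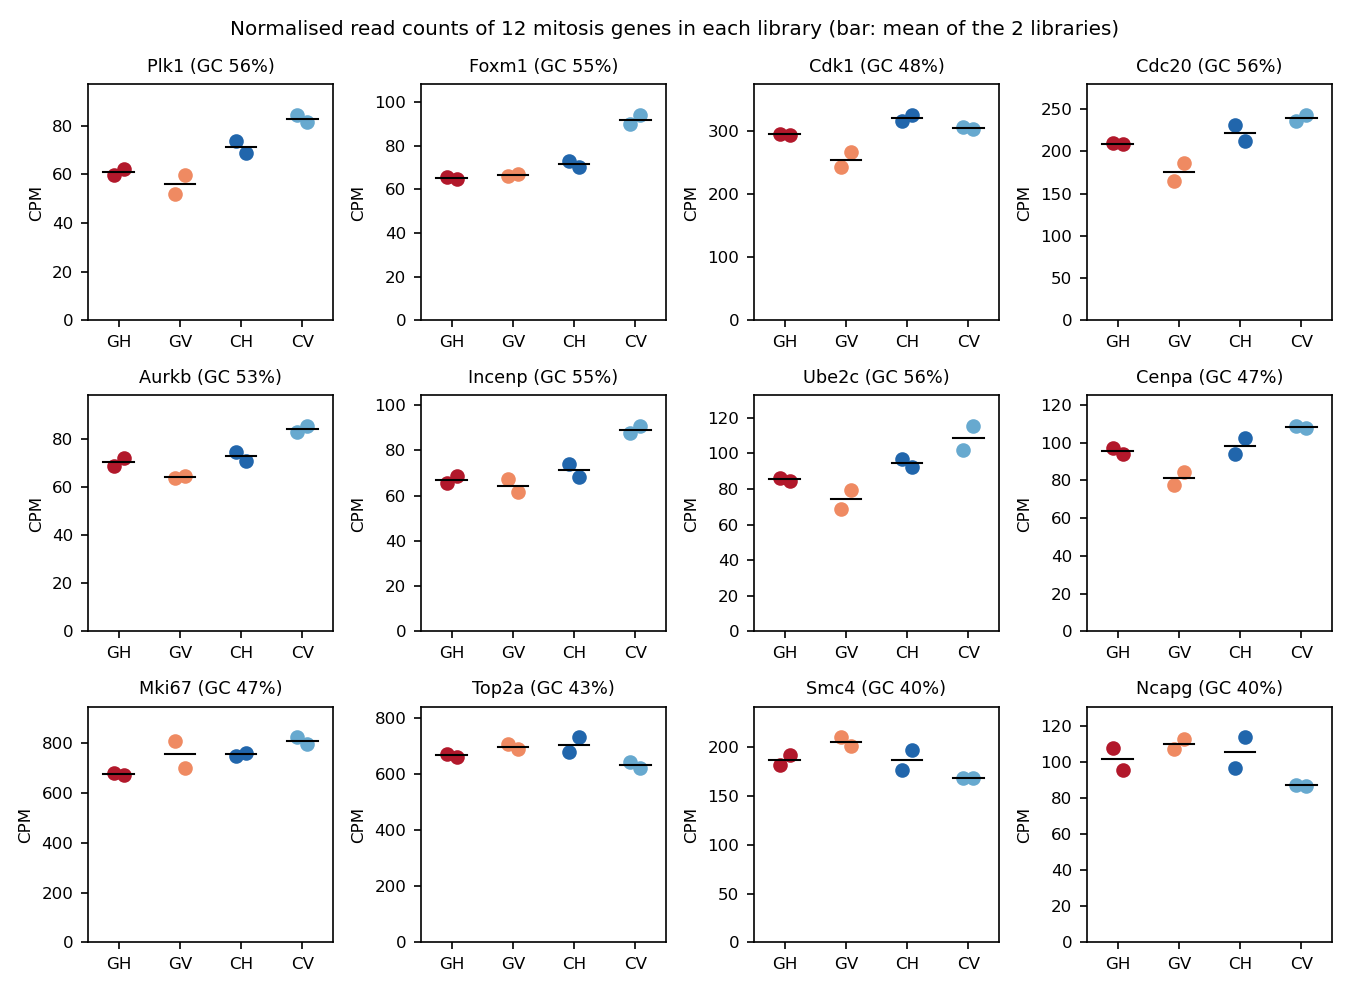
Normalised read counts (CPM, y axis from 0) of 12 members in each of the 8 libraries, by column code, with a bar at the mean of the 2 libraries of a code. Plk1, Foxm1, Cdk1, Cdc20 and Ube2c have no G library above a C library, while Smc4 and Ncapg are lowest in CV.

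The number of calls depended on the model. A fit with genotype and letter as additive terms called 6 members lower (Aurka, Cdca3, Foxm1, Ncapd2, Plk1 and Ube2c), a fit of genotype alone called Plk1 only, and without the GH1 library 11 members were called lower. Of all genes these settings called 4.66%, 2.64% and 8.6%, of which lower were 2.43%, 1.36% and 4.29%. The 1 member of 52 under genotype alone is near the share of all genes.

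Within letter H, none of the members passed. In GH minus CH, 0 of 52 members were called by edgeR, where 1.81% of all genes were. DESeq2 called 0 members and 3.21% of all genes. An unadjusted p under 0.05 was found for 12 members, and the share of all genes at that threshold was not computed. The differences were nevertheless mostly to one side, with 48 of 52 negative, a median of -0.083 beside 0.0025 for all genes, and 40 of 52 negative under scaling by library totals. Plk1 was again lowest, at -0.23 (SE 0.077, edgeR adjusted p = 0.199), followed by Aurka at -0.20 (SE 0.066, edgeR adjusted p = 0.172). Cdc25b was the most positive, at 0.21 (SE 0.075, edgeR adjusted p = 0.21). The GH and CH libraries were closer in GC dependence than GV and CV, and the differences with the GC offset had a like median of -0.095, with 0 calls where 3.51% of genes were called.

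Within letter V, members were called both ways, but only the lower calls exceeded the share of all genes. In GV minus CV, 19 members were lower and 5 higher, where 25% of all genes were called, 11.6% higher and 13.4% lower. The 5 of 52 is near the share of all genes. Library totals gave 15 lower and 8 higher, where 8.72% of all genes were lower and 16.6% higher. The lowest were Plk1 at -0.57 (SE 0.077, edgeR adjusted p = 0.000455) and Ube2c at -0.55 (SE 0.081, edgeR adjusted p = 0.000686). Incenp followed at -0.47 and Foxm1 at -0.47 (edgeR adjusted p = 0.000795 and 0.000394). All 4 genes of the passenger complex were lower again, with a median of -0.41. Pttg1, securin, which holds separase back, was at -0.26 (SE 0.086, edgeR adjusted p = 0.0417), a call lost in 11 of 17 other settings; those of Aurka, Kif20a and Cdc25b were lost in 11, 11 and 13 of them, and that of Kif18a in 9. The 5 higher members were Ncapg at 0.34, Kif20b at 0.32, Smc4 at 0.29, Kif18a at 0.24 and Spc25 at 0.24. Under the GC offset 20 members were lower and none higher (10.5% of genes were called, 6.09% lower), and Kif18a, Kif20b, Ncapg and Smc4 turned negative. Without the CV2 library 14 members were called, all lower, and 10.6% of all genes. GV minus CV and GH minus CH share no library, but both are parts of the comparison over both letters.

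Between the letters within G, 0 of 52 members were called by edgeR in GH minus GV, where 1.28% of all genes were called. An unadjusted p under 0.05 was found for 9 members, and the share of all genes at that threshold was not computed. DESeq2 called 4 members (Cdc20, Cdk1, Cenpa and Pttg1, all higher in GH), where it called 3.79% of all genes. The largest differences were those of Pttg1 at 0.34 (SE 0.085, edgeR adjusted p = 0.0765), Ccnb2 at 0.25 (SE 0.074, edgeR adjusted p = 0.119) and Cdc20 at 0.25 (SE 0.068, edgeR adjusted p = 0.0961). Mki67 was the most negative, at -0.16 (SE 0.065, edgeR adjusted p = 0.272). Under the GC offset, which called 1.84% of genes, Pttg1 was higher in GH, at 0.36 (edgeR adjusted p = 0.045). Without the GV2 library, which leaves 1 library of that code, more members were called, and a larger share of all genes too.

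Between the letters within C, 5 members were lower and 5 higher in CH minus CV, where 10.7% of all genes were called, 5.68% higher and 4.99% lower. Lower in CH were Cdc25b at -0.36, Foxm1 at -0.36, Incenp at -0.33, Espl1 at -0.30 and Aurkb at -0.21, with edgeR adjusted p from 0.00485 for Foxm1 to 0.049 for Aurkb. The values of Cdc25b given above were alike in the CH libraries and higher in both CV libraries. Higher in CH were Hmmr, a spindle-pole protein, at 0.29, Nuf2, a partner of Spc25 in the Ndc80 complex, at 0.29, Ncapg at 0.27, Kif18a at 0.26 and Spc25 at 0.26, with edgeR adjusted p from 0.0148 for Nuf2 to 0.0493 for Ncapg. The GC offset, which called 6.78% of genes (3.2% lower), left Cdc25b, Foxm1 and Incenp lower, at -0.27, -0.26 and -0.23 (edgeR adjusted p = 0.0351, 0.0117 and 0.0428) and none higher. These calls were not kept without the CH2 library or without the CV2 library. Each such fit leaves 1 library in a code and called a smaller share of all genes too. Markers of other cells moved in the same comparison: by edgeR 4 of 6 tested markers of the oligodendrocyte lineage were lower in CH and none higher, 4 of 12 of neural stem and progenitor cells and 3 of 8 of neuroblasts and neurons were lower and none higher, and 1 of 5 of endothelial and mural cells was higher and none lower. The oligodendrocyte list summed to 1530 and 1430 CPM in CH1 and CH2 and 1960 and 1930 CPM in CV1 and CV2, and Olig1 had 883 and 805 CPM in CH and 1180 and 1130 CPM in CV. Neuroblast and neuron markers summed to 59.8 and 63.6 CPM in CH and 85.6 and 89 CPM in CV, and endothelial and mural markers to 11 and 8.52 CPM in CH and 3.5 and 4.33 CPM in CV. These sums rest mostly on single genes. Gad1 had 37.3 and 42.2 CPM in CH and 59.4 and 62.6 CPM in CV. Acta2 had 8.43 and 5.36 CPM in CH and 1.65 and 1.78 CPM in CV. Of the tested markers, 7 of 8 in the neuroblast list and 2 of 5 in the endothelial list were negative. The part of these markers in the result was not tested.

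The difference between the letters differed between the libraries labelled G and C for 7 members in a test of that difference, (GH minus GV) minus (CH minus CV), where 7.35% of all genes were called, 3.93% positive and 3.41% negative. All 7 were positive: Cdc25b at 0.45 (SE 0.11, edgeR adjusted p = 0.028), Incenp at 0.38 (SE 0.10, edgeR adjusted p = 0.0398), Cenpa at 0.37 (SE 0.094, edgeR adjusted p = 0.0362), Espl1 at 0.37 (SE 0.086, edgeR adjusted p = 0.0278), Cdc20 at 0.36 (SE 0.097, edgeR adjusted p = 0.0428), Aurkb at 0.34 (SE 0.089, edgeR adjusted p = 0.0377) and Foxm1 at 0.33 (SE 0.087, edgeR adjusted p = 0.0422). Their values by library show CV above CH in the C libraries, and GH above or level with GV in the G libraries. Foxm1, for example, was alike in all 4 G libraries, above them in CH and highest in CV. With library totals (8.39% of genes called) 4 were positive and 3 negative. With DESeq2's size factors in edgeR (7.65% of genes called) 5 were positive and 2 negative. The GC offset (2.57% of genes called) left Cenpa alone, at 0.42 (edgeR adjusted p = 0.0186). The 7 calls were not kept without CH2, CV1, CV2, GH1 or GH2, each left out alone, and without GV1 Incenp alone kept its call. Each such fit leaves 1 library in a code and called a smaller share of all genes too. The loss was thus not particular to the members.

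Outside the comparison within H, the log2 difference of a member went with the GC share of its transcript. The longest protein-coding transcripts of the members run from 38.3% to 56.1% GC, with a median of 46.9%. Across the 52 members, Pearson's r between GC share and the log2 difference was -0.82 for G minus C over both letters, -0.13 within H, -0.86 within V, 0.55 for GH minus GV, -0.82 for CH minus CV and 0.83 for the difference of differences; the members share the same 8 libraries, and genes are not independent replicates. Over the 15851 genes with a GC share, the same r was -0.24, -0.027, -0.30, 0.12, -0.19 and 0.22 in the same order of comparisons. With log2 transcript length, r across the members was 0.27, -0.12, 0.34, -0.61, 0.13 and -0.38 in that order. Over the 15851 genes it was 0.084, -0.019, 0.13, -0.18, 0.0027 and -0.115. For GH minus GV, r was thus larger in size with length than with GC share.

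Split by GC share, the 18 members of 38.3% to 44.2% GC held 4 of the higher and none of the lower calls within V, with a median difference of 0.12, and Smc4, Ncapg, Kif18a and Kif20b are among them. The 17 members of 44.3% to 49.3% GC held 1 higher and 5 lower calls, with a median of -0.077. The 17 members of 49.7% to 56.1% GC held 14 lower calls, with a median of -0.39, and Plk1, Ube2c, Cdc20, Foxm1, Incenp and Espl1 are among them. Of all genes in the same ranges, 41.6%, 11.5% and 2.34% were called higher within V, and 1.71%, 4.99% and 18.5% lower. Higher calls at the GC-poor end were thus no more frequent among the members than among all genes of that range. All genes in the same ranges had medians of 0.26, 0.066 and -0.12 within V, so in each range the members lay below the median of all genes. The medians of the same members under the GC offset were -0.14, -0.13 and -0.24. An offset for GC share and length together called 32 members over both letters, 4 within H, 28 within V, 1 in GH minus GV, 6 in CH minus CV and 3 in the difference of differences, where it called 15.5%, 5.52%, 12.6%, 0.896%, 9.7% and 3.41% of all genes.

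**Figure D3:**
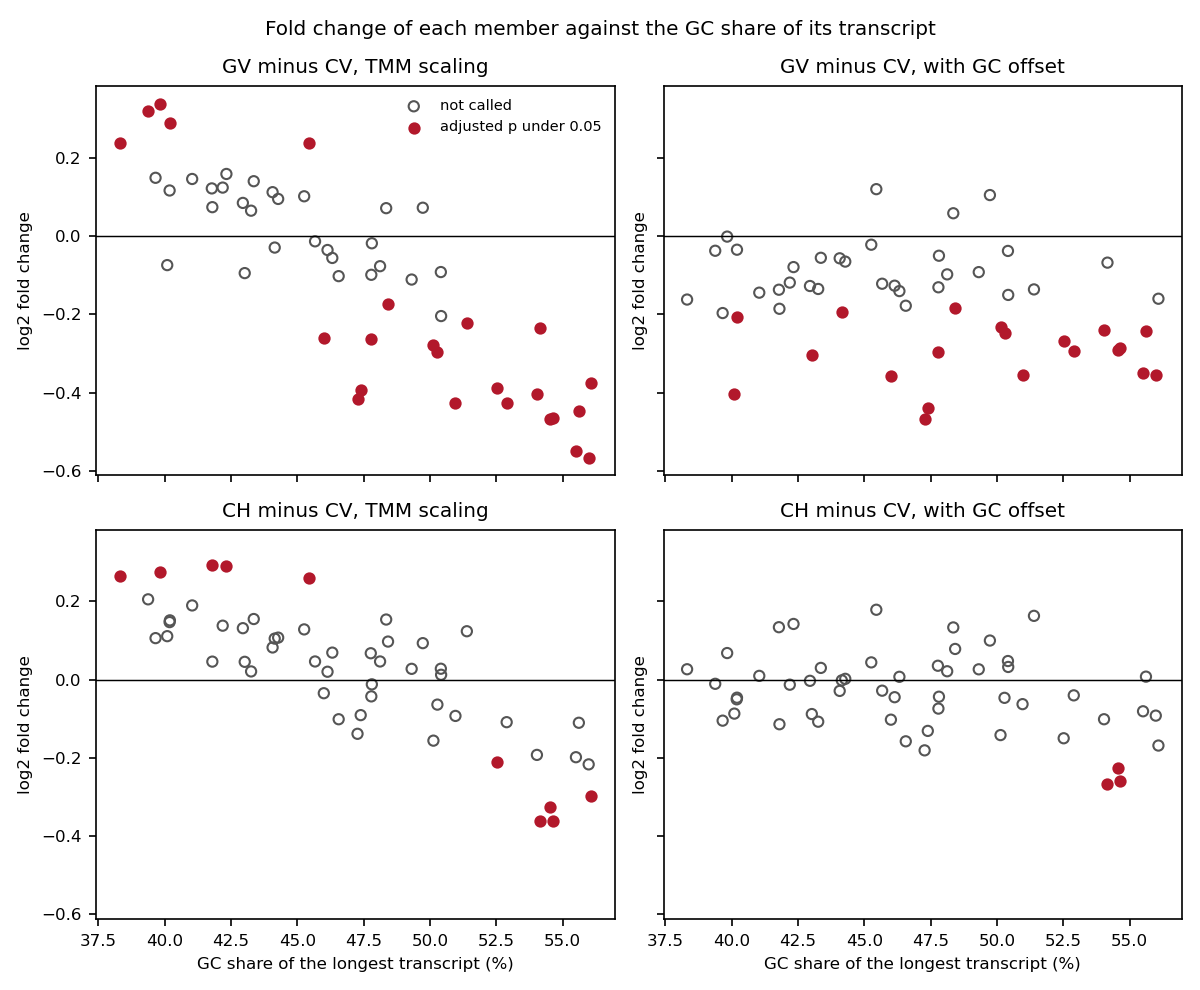
Log2 difference of each member against the GC share of its longest transcript, for GV minus CV (top) and CH minus CV (bottom), with TMM scaling (left) and with the GC offset (right). Each point is 1 member, and filled points passed an adjusted p under 0.05. On the left the points fall from positive values at low GC share to negative values at high GC share; at the top right nearly all lie below 0 at any GC share.

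The libraries themselves differed in this respect. The slope of log2 CPM on GC share over 12254 genes, relative to the mean of the libraries and per 10 points of GC, was -0.048 in GH1, -0.022 in GH2, -0.14 in GV1, -0.13 in GV2, 0.054 in CH1, -0.075 in CH2, 0.16 in CV1 and 0.20 in CV2. The GV and CV libraries thus stood at opposite ends, each with both of its libraries. The median of the 17 members richest in GC ran alike, from -0.16 in GV2 to 0.23 in CV2 relative to the mean of all libraries. That of the 18 poorest ran from -0.13 in CV2 to 0.12 in CH2. GC dependence and the column codes cannot be told apart, and its part in these results was not tested beyond the offset. The slope of log2 CPM on transcript length, per doubling of length, was 0.098 in GV1 and 0.037 in GV2. In the other libraries it ran from -0.038 in CV2 to -0.011 in CH1. The part of length was not tested beyond the offset for GC share and length.

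**Figure D4:**
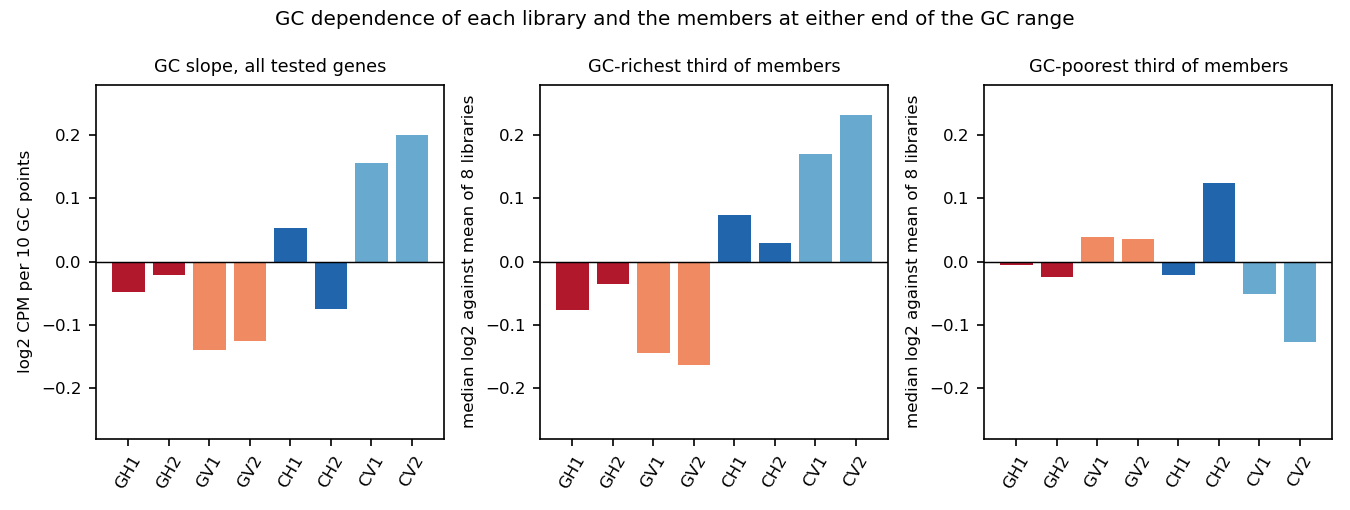
GC slope of each library over 12254 of the tested genes (left). The other panels show the median log2 level against the mean of the 8 libraries. It is given for the 17 members richest in GC (middle) and the 18 poorest (right). The G libraries are in red tones and the C libraries in blue tones. CV1 and CV2 are highest and GV1 and GV2 lowest in the left and the middle panel.

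The promoter elements shown above did not divide the members cleanly. Of the 34 members whose promoter holds a CHR, 13 were lower in G over both letters and none was higher, with a median difference of -0.086, where 10.2% of all genes were lower. Of the 9 without one in this window, 1 was lower, a share near that of all genes, with a median of 5.3e-06. Under the GC offset 19 of the 34 and 3 of the 9 were lower, beside 6.52% of all genes, and the medians were -0.14 and -0.13. The median GC share of their transcripts was 46.4% with a CHR and 42.3% without, and the difference between these sets was not tested.

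Other genes of the cell cycle, taken from lists of pathway neighbours, were compared in the same fit over both letters, which called 9.03% of all genes higher and 10.2% lower, and 12.2% (6.52% lower) under the GC offset. Of 55 further genes of G2 and mitosis, 17 were lower and 3 higher in G. Lmnb1, a lamin of the nuclear envelope, differed by -0.28 (SE 0.039, edgeR adjusted p = 0.00078), Hmgb2, a chromatin protein of dividing cells, by -0.28 (SE 0.042, edgeR adjusted p = 0.00128), and Cks1b, a small subunit of cyclin-dependent kinases, by -0.28 (SE 0.046, edgeR adjusted p = 0.00203). All 3 were also lower with the GC offset, under which 15 of the list were lower and none higher, 11 of them among the 17.

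Genes of DNA replication, which act in S phase, were lower for 15 of 32 and higher for none, with a median of -0.14. Tyms, which makes thymidylate, differed by -0.29 (SE 0.048, edgeR adjusted p = 0.00177), Pold1, the catalytic subunit of DNA polymerase delta, by -0.27 (SE 0.048, edgeR adjusted p = 0.00278), and Mcm7, a subunit of the replicative helicase, by -0.22 (SE 0.039, edgeR adjusted p = 0.00308). Under the GC offset 7 of the 32 were lower, 6 of them among the 15: Tyms and Mcm7 were still called, at -0.31 and -0.14 (edgeR adjusted p = 0.000525 and 0.0265), and Pold1 was not, at -0.11 (edgeR adjusted p = 0.101).

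Of the 13 regulators of the MuvB, DREAM and B-Myb group, 2 were higher and 1 lower, 3 of 13 against the 19.2% of all genes, a share near it. Mybl1, a relative of B-Myb, differed by 0.29 (SE 0.052, edgeR adjusted p = 0.00326), Lin54, the MuvB subunit that binds the CHR, by 0.19 (SE 0.049, edgeR adjusted p = 0.0201), and E2f4, a repressor E2F of the DREAM complex, by -0.35 (SE 0.074, edgeR adjusted p = 0.0065). E2f4 was among 3 genes of the list that were lower with the GC offset, and Mybl1 and Lin54 were at 0.035 and 0.043 (edgeR adjusted p = 0.644 and 0.644).

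Of the 20 genes of the core anaphase-promoting complex and the exit phosphatases, 5 were lower and 2 higher. Anapc11, its RING subunit, differed by -0.28 (SE 0.050, edgeR adjusted p = 0.00287), Anapc13 by -0.37 (SE 0.074, edgeR adjusted p = 0.0049), and Fzr1, the activator Cdh1 of late mitosis and G1, by -0.27 (SE 0.053, edgeR adjusted p = 0.00461). Under the GC offset 4 were lower and none higher, and 2 of the 4 were among the 5: Anapc11, at -0.21, and Anapc15, at -0.19. The other 2 were Anapc10, at -0.25, and Arpp19, at -0.16, with edgeR adjusted p of 0.0435 and 0.0269, while Anapc13 and Fzr1 were not called, at -0.25 and -0.11 (edgeR adjusted p = 0.0533 and 0.11). Anapc10, Anapc15 and Arpp19 were named after their values were seen.

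Of the 14 inhibitors and G1 cyclins, 2 were higher and 3 lower. Rb1, the retinoblastoma protein that holds E2F factors back, differed by 0.36 (SE 0.058, edgeR adjusted p = 0.00177), and Cdk6, a G1 kinase, by 0.46 (SE 0.100, edgeR adjusted p = 0.00768). Both were also higher with the GC offset, at 0.20 and 0.39 (edgeR adjusted p = 0.0155 and 0.0168). Cdkn1a, the inhibitor p21, differed by -0.17 (SE 0.039, edgeR adjusted p = 0.0109), and with the GC offset by -0.075 (edgeR adjusted p = 0.172).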

How the data were processed

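Per the labels' protocols, total RNA was taken with a column kit and libraries were made with a strand-marking kit after removal of ribosomal RNA. Tools named in the submitters' processing notes are HISAT2 2.1.0, StringTie 2.1.3b, Trimmomatic and bcl2fastq 2.20.0, with the mouse build GRCm38 (mm10); how reads were assigned to genes, and whether by strand, is not given in the sources used here. The authors deposited 1 table with raw counts, FPKM and TPM per gene and library; only the counts were used, and the other 16 value columns were not. Columns were matched to genotype by their first letter, C to control and G to S1PR1-deficient by elimination. The members and the lists were chosen with earlier results of these data known.

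Counts were filtered by expression (17644 genes kept), scaled by TMM and fitted with edgeR 4.0.16 in R 4.3.3 (quasi-likelihood, 1 mean per column code, 2 libraries each) in 6 comparisons, with Benjamini-Hochberg adjustment over all genes and a threshold of 0.05. The SE is the log2 difference over the square root of F. The common biological coefficient of variation was 7.52%. The 2 libraries of a code differed by more than counting error, with a mean chi-square per gene of 5.55 to 15.1. DESeq2 1.42.0, other scalings, no filter, other designs and leaving out each library were alternatives. GC share and length come from the longest protein-coding GENCODE M21 transcript of all 52 members and of 89.8% of tested genes. The GC offset, which removes each library's loess trend (span 0.5) of log2 CPM on GC share, was chosen after seeing the data. Values by library are given for Mki67, Top2a, Cdk1, Ccnb1, Foxm1, for the members of each role with the smallest p and for up to 8 further called members; of pathway lists, the 3 called genes with the smallest p. Reads that a gene shares with pseudogenes or overlapping genes cannot be told apart in these counts.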

Additional observations from a re-analysis of the deposited data

Results flagged for a closer look

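Ccnb1 in the GV1 library, at 207 CPM, stood apart from the other 3 G libraries, which had 228 to 232 CPM. Spc25 in the GV2 library, at 91.7 CPM, stood above the other 3 G libraries at 81.3 to 83 CPM, and Tpx2 in the CV1 library, at 200 CPM, above the other 3 C libraries at 188 to 189 CPM. Each gap exceeded Dixon's 95% critical value for 4 samples. A group pooled the H and V libraries of 1 genotype, which that value does not allow for. Of 54 groups examined, 3 stood out. The usual chance rate of about 1 in 20 groups holds only for 4 samples of 1 kind.

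For 7 members the difference of H minus V differed between the G and the C libraries in edgeR's test of that difference. On the log2 scale it was 0.344 for Aurkb, 0.361 for Cdc20, 0.446 for Cdc25b, 0.374 for Cenpa, 0.367 for Espl1, 0.327 for Foxm1 and 0.383 for Incenp. With the GC offset Cenpa alone passed, and the GC dependence of the libraries differed in the same direction between the codes; its part was not tested further.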

How the results depend on the processing

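The number of members called for G minus C over both letters was 19, and 11 to 20 when each library was left out in turn. It was 6 with additive terms, 1 with genotype alone, 32 with a GC and length offset, 12 with the GC offset and additive terms, and 2 with the GC offset and genotype alone (Mad2l1 and Plk1). By construction the additive fit leaves the difference of differences in the residual spread, and the fit of genotype alone also the difference between letters. Within H the count was 0, 0 in every fit that left out a library, and 4 with the GC and length offset. Within V it was 24, and 14 to 24 with a library left out. For GH minus GV it was 0, 0 to 4 with a library left out, 4 with DESeq2, and 1 each with the GC offset, with the GC and length offset and with the GC offset and replicate block. For CH minus CV it was 10, 0 to 12 with a library left out, 3 with the GC offset, 6 with the GC and length offset and 2 with the GC offset and replicate block. For the difference of differences it was 7, 0 to 10 with a library left out, 13 without the filter on low counts, 17 with DESeq2, 1 with the GC offset, 3 with the GC and length offset and 1 with the GC offset and replicate block. The share of all genes called moved with the setting too. Over both letters it was 5.29% with the GC offset and additive terms, and 1.74% with the GC offset and genotype alone. For GH minus GV it was 3.79% with DESeq2. For the difference of differences it was 7.35% in the main fit, 7.05% without the filter on low counts and 11.5% with DESeq2. With the GC offset and replicate block it was 1.82% for GH minus GV, 6.56% for CH minus CV and 2.43% for the difference of differences. The cause of these changes was not tested. All offset settings were chosen after seeing the data.

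Of the members called, 16 values turned their sign, all under an offset. Within V, Kif18a became -0.162 with the GC offset, -0.144 with GC and length and -0.163 with GC and replicate block; Kif20b became -0.0379, -0.049 and -0.0379; Smc4 became -0.0352, -0.0412 and -0.0346. Ncapg within V became -0.00171 with the GC offset and -0.00169 with the block added. Smc4 over both letters became -0.0323, -0.0347 and -0.0321 in the same order, -0.0323 with additive terms and -0.0322 with genotype alone. No sign turned under other scalings, DESeq2, no filter or a left-out library.

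Same-numbered libraries did not deviate together (correlations of -0.116 to 0.157 between codes), so the numbers were not taken to pair samples. With a replicate block the counts were 18 over both letters, 0 within H, 22 within V, 0 for GH minus GV, 7 for CH minus CV and 2 for the difference of differences.

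Depth does not limit the members, whose lowest count was 1059, but 2 libraries per code do. Scaling by library totals moved the median of all genes for G minus C to 0.048.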
